A study of Mus musculus with 6 samples.

Results

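The nuclear genes of the mitochondrial respiratory chain and ATP synthase were followed in a mouse glioblastoma stem cell line after knockdown of Ggct. Members were taken by symbol: every non-control probe whose transcript maps to a nuclear gene named Nduf-, Sdha to Sdhd, Uqcr-, Cox4 to Cox8 or Atp5-. This gave 119 of 56605 probes, for 96 of the 22911 genes that the probes could be named for, all 96 protein-coding. Of these, 91 genes (113 probes) were among the 14151 genes tested, and all 91 were above background on all 6 arrays. The prefixes also take in assembly factors of complexes I and II. These count among the 91 and in the medians of their complexes, and their own medians are also given apart.

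The knockdown group (3 arrays) was cells stably transduced by lentivirus with 1 shRNA against GGCT, and the control group (3 arrays) was the same line given a lentiviral non-target shRNA. The line, 5B in the titles, was derived as neurospheres from glioblastomas induced in mice with the SB transposon, and both groups were kept in serum-free neural stem cell medium with EGF and bFGF. It is a single line with a single hairpin, so effects of the hairpin other than loss of Ggct cannot be told apart from it. Each of 3 dates in the titles is shared by 1 knockdown and 1 control array, which gives 3 pairs. The labels say nothing more about separate cultures, so each p-value reflects array-to-array spread that may partly be technical. All values are normalised log2 signals, which is log2 of the array's background-corrected intensity minus that array's 75th percentile. A log2 fold change is knockdown minus control.

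Complexes I to IV pass electrons from NADH and succinate to oxygen, complexes I, III and IV pump protons across the inner mitochondrial membrane as they do so, and complex V, the ATP synthase, uses the returning protons to make ATP. Most subunits are encoded in the nucleus and the remainder in mitochondrial DNA, so assembly draws on both genomes. Nuclear respiratory factor NRF1, ETS-family factors such as GABP, YY1 and the estrogen-related receptors are known regulators of many of the nuclear genes. Ggct encodes gamma-glutamylcyclotransferase of the gamma-glutamyl cycle, the route of glutathione turnover.

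The label check came first. Ggct stood at 0.22, 0.91 and 0.70 on the knockdown arrays, against 3.32, 3.72 and 3.70 on the control arrays, without overlap, and fell to 12.7% of control (limma adjusted p = 0.00314). Of the neural and glioma stem cell markers, Nes, Sox2, Prom1, Fabp7 and Vim were above background on all 6 arrays and Olig2 on 0. Of markers of other cells, Csf1r (microglia), Pecam1 and Cdh5 (endothelium) and Snap25 and Syt1 (neurons) were also above background on 6 arrays, while Aif1, Cx3cr1, Ptprc, Cldn5 and Rbfox3 were on 0. None of the 10 tested markers passed limma's adjusted threshold. At an unadjusted limma p below 0.05, 1 of 5 tested stem cell markers was higher, Prom1 (log2 fold change 1.03). In the other direction 2 were lower, Nes (-0.64) and Sox2 (-0.34). Of all genes tested, 14.1% were higher and 10.7% lower at that threshold. The part of the markers in the results below was not tested. In bulk RNA, fewer cells of a type and less RNA per cell cannot be told apart.

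Most respiratory chain genes differed little between the groups, with more values above 0 than below. 3 of the 91 rose in the knockdown at a limma adjusted p below 0.05: Cox7a1, Sdhaf4 and Ndufv3. That is 3.30% of the members, beside 4.57% of all genes tested that were called higher. None fell, beside 2.84% of all genes called lower; at an unadjusted limma p below 0.05, 1 member was lower, where 10.7% of all genes were, and 7 were higher (7.69%), where 14.1% of all genes were. The calls therefore came no more often among the members than across the array.

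Their direction was less even. 79 of 91 members (86.81%) had a log2 fold change above 0, where 52.3% of all genes did. The median of the members was 0.15, a fold of 1.11, beside 0.02 over all genes. The knockdown was higher in all 3 pairs for 47 members (51.65%), where 26.3% of all genes were, and lower in all 3 pairs for 4 members, where 22.4% of all genes were. Genes of 1 array share whatever moves that array, so these counts describe the 6 arrays and are not independent tests.

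The changes were also small. Of the members, 88 of 91 (96.7%) had a log2 fold change within 0.4 of 0, where 76.84% of all genes did. The 95% interval of 79 members (86.81%) lay within 1.5-fold either way, where that of 50.2% of all genes did, and the interval of all 91 lay within 2-fold. The median absolute log2 fold change was 0.16 in members and 0.20 over all genes, and the median standard error (SE) 0.13 and 0.15. The members were brighter than most genes: 49 of the 91 had a mean signal of 6 or more, beside 646 of the 14151 genes tested. Their changes and intervals were not compared with those of genes of like signal.

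**Figure D1:**
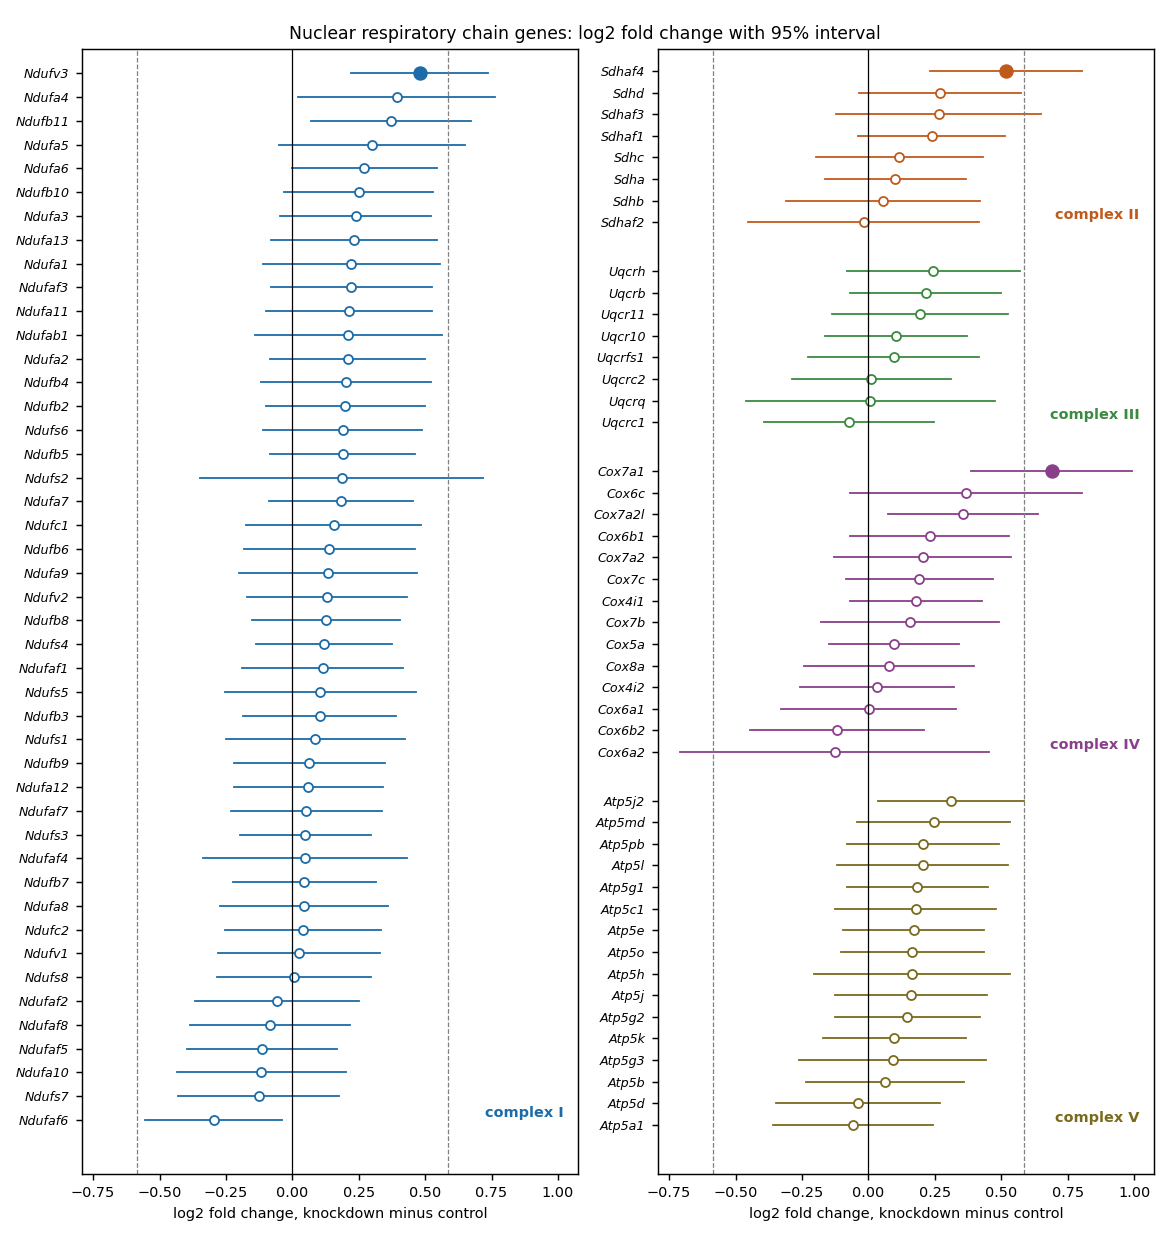
Log2 fold change (knockdown minus control, horizontal axis) of each of the 91 tested members, with its 95% interval, ordered within complexes I to V; filled circles passed the limma adjusted p of 0.05 and dashed lines mark 1.5-fold. 79 points lie above 0, and Ndufv3, Sdhaf4 and Cox7a1 are the filled ones.

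**Figure D2:**
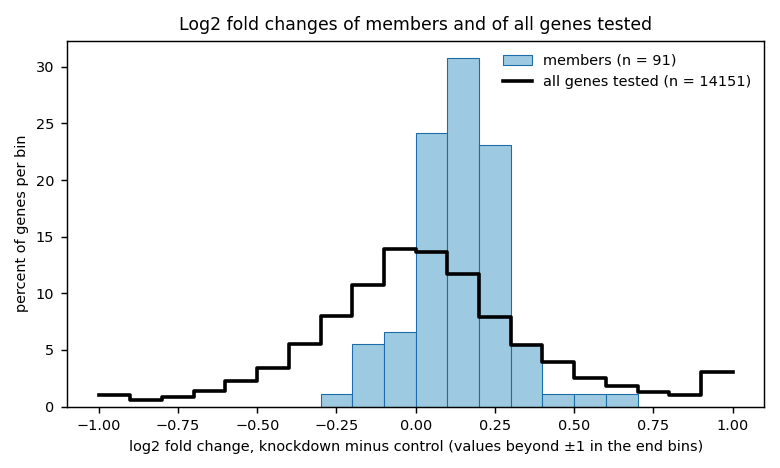
Share of genes (percent, vertical axis) per bin of log2 fold change (knockdown minus control, horizontal axis), as blue bars for the 91 members and as a black line for the 14151 genes tested. The members form a narrow peak just above 0, with 96.7% within 0.4 of 0, against 76.84% of all genes.

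The promoters of the 3 genes that rose are shown because these genes carry the calls, with the letters of known regulators of the chain marked. Windows of 250 bases before to 50 bases after each start were taken from RefSeq (GRCm38.p6), which held 84 windows for 79 of the 96 genes. Both strands were searched for 4 motifs: CGCANGCGC for NRF1, CCGGAAG for ETS factors, AANATGGCG for YY1 and AAGGTCA for the estrogen-related receptors. Matches are in capitals below, and the sequences run 5′ to 3′ on the gene's own strand.
Cox7a1 (chr7:30183921-30184220, plus strand): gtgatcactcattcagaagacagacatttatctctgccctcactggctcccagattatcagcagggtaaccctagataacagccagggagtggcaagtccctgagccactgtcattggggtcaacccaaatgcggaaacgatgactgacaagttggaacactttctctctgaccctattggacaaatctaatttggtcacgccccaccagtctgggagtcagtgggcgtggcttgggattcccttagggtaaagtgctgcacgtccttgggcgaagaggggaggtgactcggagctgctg
Ndufv3 (chr17:31519865-31520164, plus strand): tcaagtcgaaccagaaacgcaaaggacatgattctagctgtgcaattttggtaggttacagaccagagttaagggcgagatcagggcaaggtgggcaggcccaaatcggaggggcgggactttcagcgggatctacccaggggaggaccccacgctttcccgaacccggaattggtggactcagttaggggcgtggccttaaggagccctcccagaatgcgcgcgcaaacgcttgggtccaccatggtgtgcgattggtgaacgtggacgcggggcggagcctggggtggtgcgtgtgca
Sdhaf4 (chr1:24005591-24005890, minus strand): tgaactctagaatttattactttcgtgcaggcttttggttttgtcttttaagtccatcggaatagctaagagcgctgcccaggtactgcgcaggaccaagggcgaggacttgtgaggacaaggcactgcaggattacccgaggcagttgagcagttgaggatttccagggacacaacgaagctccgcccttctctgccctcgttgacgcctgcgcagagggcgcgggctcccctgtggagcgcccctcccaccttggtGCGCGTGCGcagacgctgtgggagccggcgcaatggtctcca
Sdhaf4 held 1 match to the NRF1 letters, and the other two held no match to the 4 motifs. The windows of Atp5k, Atp5l, Cox6a1 and Ndufb4 held the most matches among the members, 4 each, with both strands of a palindromic stretch counted, and are shown for contrast.
Atp5k (chr5:108434350-108434649, minus strand): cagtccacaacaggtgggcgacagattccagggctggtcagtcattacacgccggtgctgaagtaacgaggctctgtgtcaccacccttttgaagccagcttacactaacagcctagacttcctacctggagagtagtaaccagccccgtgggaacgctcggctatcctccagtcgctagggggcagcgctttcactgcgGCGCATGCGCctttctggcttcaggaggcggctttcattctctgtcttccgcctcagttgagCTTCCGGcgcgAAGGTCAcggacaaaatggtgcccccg
Atp5l (chr9:44920693-44920992, minus strand): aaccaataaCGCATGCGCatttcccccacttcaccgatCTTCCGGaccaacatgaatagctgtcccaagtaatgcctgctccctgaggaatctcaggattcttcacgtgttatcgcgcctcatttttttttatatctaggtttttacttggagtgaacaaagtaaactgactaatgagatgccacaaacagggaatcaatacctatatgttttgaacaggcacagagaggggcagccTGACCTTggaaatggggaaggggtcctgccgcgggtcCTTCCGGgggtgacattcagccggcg
Cox6a1 (chr5:115348909-115349208, minus strand): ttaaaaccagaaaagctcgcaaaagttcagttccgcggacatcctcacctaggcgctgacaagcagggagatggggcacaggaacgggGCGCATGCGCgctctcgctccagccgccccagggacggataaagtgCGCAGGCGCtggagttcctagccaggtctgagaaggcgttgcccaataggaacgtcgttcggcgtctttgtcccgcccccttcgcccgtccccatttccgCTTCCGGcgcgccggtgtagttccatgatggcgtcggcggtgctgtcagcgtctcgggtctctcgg
Ndufb4 (chr16:37654319-37654618, minus strand): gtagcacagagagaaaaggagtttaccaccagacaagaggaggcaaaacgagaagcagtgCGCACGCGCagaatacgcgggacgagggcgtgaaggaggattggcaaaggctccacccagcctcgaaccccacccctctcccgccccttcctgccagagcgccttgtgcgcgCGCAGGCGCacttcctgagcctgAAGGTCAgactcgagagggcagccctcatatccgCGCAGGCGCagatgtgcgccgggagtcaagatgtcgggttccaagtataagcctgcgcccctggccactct
These are subunits of the ATP synthase dimer contact (Atp5k and Atp5l), of cytochrome c oxidase (Cox6a1) and of complex I (Ndufb4, accessory). None of the 4 passed the test: their log2 fold changes were 0.10 for Atp5k, 0.20 for Atp5l, 0.00 for Cox6a1 and 0.20 for Ndufb4.

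NRF1 letters were in 34.52% of member windows, in 12.05% of the windows of tested genes and in 6.31% of all windows. ETS letters were in 26.19% of member windows, 15.92% of tested genes' windows and 8.86% of all. YY1 letters were in 14.29% of member windows, 4.50% of tested genes' windows and 2.38% of all. Estrogen-related receptor letters were in 9.52% of member windows, 3.30% of tested genes' windows and 4.72% of all. The median GC content was 58.5% in member windows, 60.0% in those of tested genes and 52.67% in all. By complex, genes with NRF1 letters numbered 11 in complex I, 4 in II, 3 in III, 1 in IV and 9 in V. These are counts and not shares, since the complexes differ in their number of genes with a window. The median log2 fold change was 0.16 for 28 tested members with NRF1 letters and 0.16 for 49 without. A match is a description of the window and not a bound site.

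Complex I takes electrons from NADH. Its 45 tested genes had a median log2 fold change of 0.13, with 39 above 0, and 1 of them, Ndufv3, passed the test. Ndufv3, an accessory subunit of the NADH-oxidising arm, stood at 5.96, 5.79 and 5.87 in the knockdown arrays, against 5.38, 5.41 and 5.39 in the control arrays. Each knockdown array was above each control array, and the control arrays had an SD of 0.01. It rose by 0.48 ± 0.11 on the log2 scale (SE; 1.39-fold, 95% interval 1.17 to 1.67; limma adjusted p = 0.0448), and in 3 of 3 pairs. With the pairs as a block the limma adjusted p was 0.0923, and with any 1 array left out it ran from 0.0784 (without knockdown 1) to 0.153 (without control 2), so the call needed all 6 arrays.

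The other named accessory subunits did not pass. Ndufa4, classed here by its symbol but known as a subunit of complex IV, stood at 6.35, 6.06 and 6.25 in the knockdown, against 5.57, 5.84 and 6.07 in the control (log2 fold change 0.39 ± 0.16 SE, limma adjusted p = 0.181). The groups overlapped by 1 array of each, since knockdown 2 lay just below control 3. Ndufb11, a membrane-arm subunit, stood at 7.02, 6.95 and 7.12, against 6.64, 6.83 and 6.51 in the control (0.37 ± 0.13 SE, limma adjusted p = 0.127). Its groups did not overlap. Ndufa13, a subunit also known as Grim19, differed by 0.23 ± 0.13 (SE, limma adjusted p = 0.333).

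The median log2 fold change differed between classes of complex I genes, which was not tested. The 30 accessory subunits had a median of 0.19, with 29 above 0. The 7 nuclear core subunits, among them those that hold the flavin and the iron-sulphur clusters, had a median of 0.05. The 8 assembly factors had a median of -0.0047, with 4 above and 4 below 0. Ndufv1, the core subunit that binds NADH, stood at 5.81, 6.09 and 6.12 in the knockdown, against 5.91, 6.06 and 5.98 in the control, with the groups overlapping (0.03 ± 0.13 SE).

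Ndufaf6, a complex I assembly factor, was the only member lower on every knockdown array than on every control array, where 14.6% of all genes were lower without overlap. It stood at 1.48, 1.47 and 1.40 in the knockdown, against 1.73, 1.66 and 1.83 in the control. Its log2 fold change was -0.30 ± 0.11 (SE), at an unadjusted limma p of 0.030 and an adjusted p of 0.151, so it did not pass. The other members lower in all 3 pairs were also of complex I: Ndufa10 (-0.12), Ndufaf5 (-0.11) and Ndufs7 (-0.13), named after their values were seen.

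Complex II, succinate dehydrogenase, links the citric acid cycle to the chain. Its 8 tested genes are the 4 subunits and 4 assembly factors, with a median log2 fold change of 0.18 and 7 above 0. The 4 subunits alone had a median of 0.11 and the 4 assembly factors 0.25, a difference that was not tested. Sdhaf4, known from yeast to bind the flavoprotein subunit before it joins the iron-sulphur subunit, stood at 2.99, 2.72 and 2.89 in the knockdown, against 2.27, 2.35 and 2.42 in the control. Each knockdown array was above each control array. It rose by 0.52 ± 0.12 on the log2 scale (SE; 1.43-fold, 95% interval 1.17 to 1.75; limma adjusted p = 0.0478) and in 3 of 3 pairs, with a limma adjusted p of 0.0950 when the pairs were a block. With any 1 array left out the adjusted p ran from 0.0694 (without knockdown 2) to 0.160 (without control 2), so this call too needed all 6 arrays.

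None of the 4 subunits passed. Sdha, the succinate-oxidising flavoprotein, had a log2 fold change of 0.10 ± 0.11 (SE), and the iron-sulphur subunit Sdhb 0.05 ± 0.16 (SE). Of the membrane anchors, Sdhc had 0.12 ± 0.14 (SE), while Sdhd had 0.27 ± 0.13 (SE, limma adjusted p = 0.254) and no overlap, at 6.02, 5.98 and 6.14 in the knockdown, against 5.58, 5.87 and 5.89 in the control. The assembly factor Sdhaf1 also did not overlap, at 3.85, 3.73 and 3.57 in the knockdown, against 3.46, 3.49 and 3.48 in the control (0.24 ± 0.12 SE, limma adjusted p = 0.266). Sdhaf2, which helps attach the flavin, and Sdhaf3 had log2 fold changes of -0.02 ± 0.19 and 0.26 ± 0.17 (SE), with overlapping groups.

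Complex III passes electrons from ubiquinol to cytochrome c. Its 8 tested genes had a median log2 fold change of 0.10, with 7 above 0 and 0 called; at an unadjusted limma p below 0.05 the count was also 0. Uqcrh, the hinge protein, had the largest difference, at 7.40, 7.60 and 7.63 in the knockdown, against 7.13, 7.50 and 7.27 in the control (0.24 ± 0.14 SE, limma adjusted p = 0.332). Only control 2 lay within the range of the knockdown arrays. Uqcrb and Uqcr11, small subunits, had log2 fold changes of 0.21 ± 0.12 and 0.19 ± 0.14 (SE). Uqcrq, a further small subunit, had 0.01 ± 0.20 (SE), with pair differences of -0.41, -0.06 and 0.50. Groups overlapped for every tested member of complex III. The complex III median was 0.05 under quantile normalization, 0.16 without knockdown 1, 0.07 without knockdown 3 and 0.17 without control 2.

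Complex IV, cytochrome c oxidase, passes electrons to oxygen. Its 14 tested genes had a median log2 fold change of 0.17, with 12 above 0, and of 0.08 under quantile normalization. Cox7a1, the heart and muscle form of subunit 7a, had the largest change of the 91 members. It stood at 1.30, 1.06 and 1.20 in the knockdown, against 0.61, 0.34 and 0.54 in the control, without overlap. It rose by 0.69 ± 0.13 on the log2 scale (SE; 1.61-fold, 95% interval 1.31 to 1.99; limma adjusted p = 0.026), by 0.69, 0.72 and 0.66 in the 3 pairs, and with the pairs as a block the limma adjusted p was 0.0446. The call held without knockdown 1 (0.0427) or knockdown 2 (0.0464) and was lost without knockdown 3 (0.0865), control 1 (0.0769), control 2 (0.109) or control 3 (0.0596).

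The common form Cox7a2 stood at 6.54, 6.78 and 6.84 in the knockdown, against 6.51, 6.69 and 6.35 in the control, with overlap (0.20 ± 0.14 SE, limma adjusted p = 0.435). Cox7a2l, a relative of Cox7a2 known for joining complexes III and IV into supercomplexes, stood at 6.64, 6.54 and 6.55, against 6.13, 6.38 and 6.15 in the control. Its groups did not overlap, and its log2 fold change of 0.36 ± 0.12 (SE) did not pass (limma adjusted p = 0.121).

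The difference between isoform and common form was compared for 4 pairs of genes by an exact two-sided permutation test, which with 3 arrays against 3 cannot go below 0.1. The log2 fold change of Cox7a1 minus that of Cox7a2 was 0.49, with 0.67, 0.63 and 0.16 in the 3 pairs (exact permutation p = 0.1, adjusted p = 0.133). For Cox4i2 minus Cox4i1 it was -0.15 (exact permutation p = 0.1, adjusted 0.133), and for Cox6b2, the testis form, minus Cox6b1 it was -0.35 (exact permutation p = 0.1, adjusted 0.133). For Cox6a2, the muscle form, minus Cox6a1 it was -0.13 (exact permutation p = 0.7, adjusted 0.7). Since p cannot go below 0.1 here, none of the 4 could pass at 0.05. The test therefore cannot decide whether isoform and common form differed. The log2 fold changes behind these were 0.03 for Cox4i2 and 0.18 for Cox4i1, -0.12 for Cox6b2 and 0.23 for Cox6b1, and -0.13 for Cox6a2 and 0.00 for Cox6a1.

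Of the other complex IV subunits, Cox6c stood at 7.04, 7.27 and 7.37 in the knockdown, against 6.89, 7.18 and 6.52 in the control (0.37 ± 0.19 SE, limma adjusted p = 0.278). Control 2 lay within the range of the knockdown arrays. Cox8a had a log2 fold change of 0.08 ± 0.14 (SE). The 9 common subunits all had a value above 0, with a median of 0.18, but under quantile normalization Cox8a stood at -0.01, Cox6a1 at -0.04 and Cox5a at -0.0024. The muscle form Cox8b, the testis form Cox8c and Ndufa4l2, a hypoxia-induced relative of Ndufa4, were not well above background on any array. Cox7b2 was above background on 2 knockdown arrays and 0 control arrays, and was not tested.

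**Figure D3:**
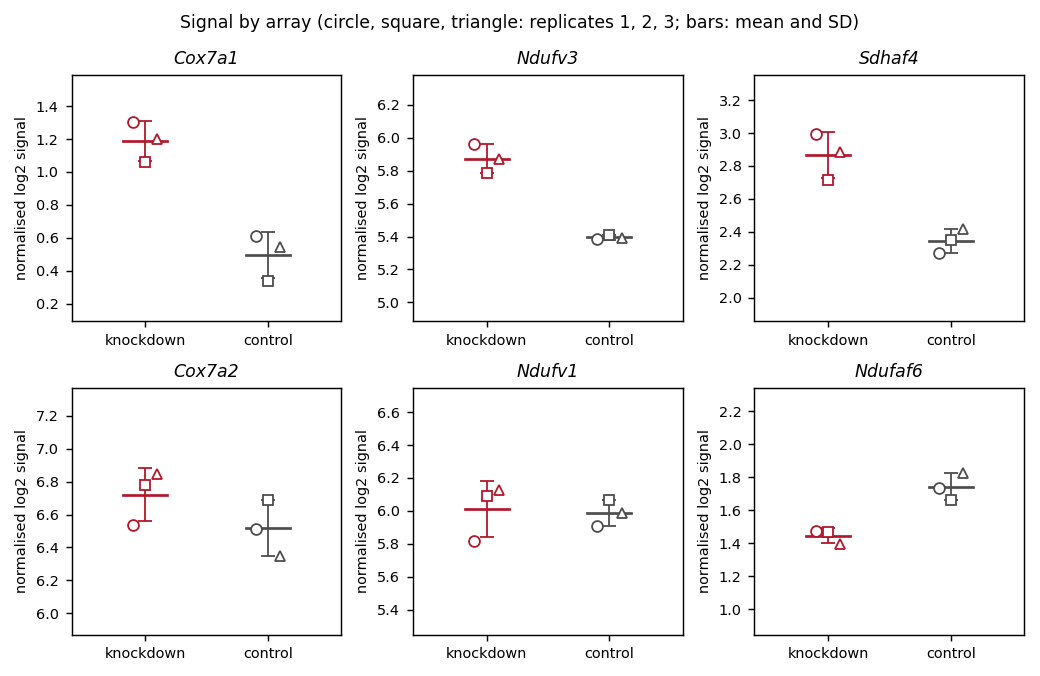
Normalised log2 signal (vertical axis, each panel spanning 1.5 log2 units) on the 3 knockdown and 3 control arrays; circles, squares and triangles are replicates 1, 2 and 3, and bars give the mean and SD. The knockdown arrays lie above all control arrays for Cox7a1, Ndufv3 and Sdhaf4 and below them for Ndufaf6, and the groups overlap for Cox7a2 and Ndufv1.

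Complex V makes ATP. Its 16 tested genes had a median log2 fold change of 0.16, with 14 above 0 (0.10 under quantile normalization), and 0 were called; at an unadjusted limma p below 0.05, 1 was higher, Atp5j2. Atp5j2, a subunit of the membrane part, stood at 6.65, 6.62 and 6.72 in the knockdown, against 6.23, 6.47 and 6.35 in the control, without overlap (0.31 ± 0.12 SE, limma adjusted p = 0.154). Atp5md, a small membrane subunit, had a log2 fold change of 0.25 ± 0.12 (SE), and Atp5pb, of the peripheral stalk, 0.21 ± 0.12 (SE). Atp5g2, a source of the rotating c-ring, had 0.15 ± 0.12 (SE). The catalytic beta subunit Atp5b had 0.06 ± 0.13 (SE), with groups that overlapped. The 8 core genes of the catalytic head, central stalk and c-ring had a median of 0.12, and the 8 peripheral-stalk and membrane genes a median of 0.18.

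Across complexes, the groups did not overlap with the knockdown higher for 21 members (23.08%), where 17.8% of all genes did so: 9 in complex I, 3 in II, 0 in III, 5 in IV and 4 in V. In complex I these were Ndufv3, Ndufb11 and, with smaller differences, Ndufa6 (0.27), Ndufb10 (0.25), Ndufa3 (0.24), Ndufb5 (0.19), Ndufa7 (0.18), Ndufs4 (0.12) and Ndufs3 (0.05), of which Ndufs3 is a core subunit and the others are accessory. In complex IV they were Cox7a1, Cox7a2l, Cox7c (0.19), Cox4i1 (0.18) and Cox5a (0.10), and in complex V Atp5j2, Atp5pb (0.21), Atp5g1 (0.18) and Atp5e (0.17). Cox4i1, the common form of subunit 4, stood at 7.09, 7.02 and 7.03 in the knockdown, against 6.82, 6.88 and 6.91 in the control (limma adjusted p = 0.354). Atp5e, of the central stalk, stood at 7.16, 7.20 and 7.07, against 6.97, 7.06 and 6.89 in the control (limma adjusted p = 0.409). Apart from the 3 genes called, none of these members passed the test.

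The 5 complex medians, from 0.10 to 0.18, spanned less than most complexes varied over the 3 pairs, where the SD of a complex's pair medians ran from 0.08 to 0.18. Over all members the pair medians were 0.13, 0.06 and 0.24, so every pair was above 0, with pair 2 lowest. Complex II differed most between pairs, at 0.42, 0.08 and 0.14. Over all genes the pair medians were 0.09, 0.00 and -0.03.

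**Figure D4:**
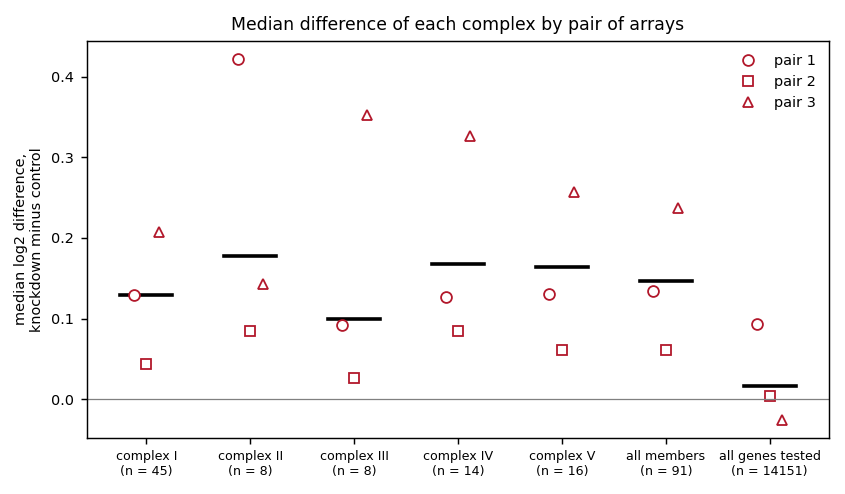
Median log2 difference (knockdown minus control, vertical axis) of complexes I to V, of all members and of all genes tested; circles, squares and triangles are pairs 1, 2 and 3, and black lines the median of the fitted log2 fold changes. Every pair median of the members lies above 0, and pair 2 is lowest in each complex.

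The members' level also moved with arrays inside a group. Their median deviation from each gene's mean over the 6 arrays was -0.02, 0.10 and 0.12 on the knockdown arrays, against -0.14, 0.05 and -0.12 on the control arrays. Knockdown 3 was the highest array for 38 members, and control 1 the lowest for 43 and control 3 for 35. Among the 646 genes with a mean signal of 6 or more, 49 of which are members, the deviations were -0.10, 0.10 and 0.08 on the knockdown arrays, against -0.05, 0.11 and -0.12 on the control arrays. Knockdown 1 and control 3, at 762.9 and 867.0 intensity units at the 75th percentile, were the brightest arrays, where the others, control 1 included, ran from 531.5 to 600.6. Under quantile normalization the members' median was 0.10, with 68 of 91 above 0. The part of brightness in the members' shift was not tested.

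**Figure D5:**
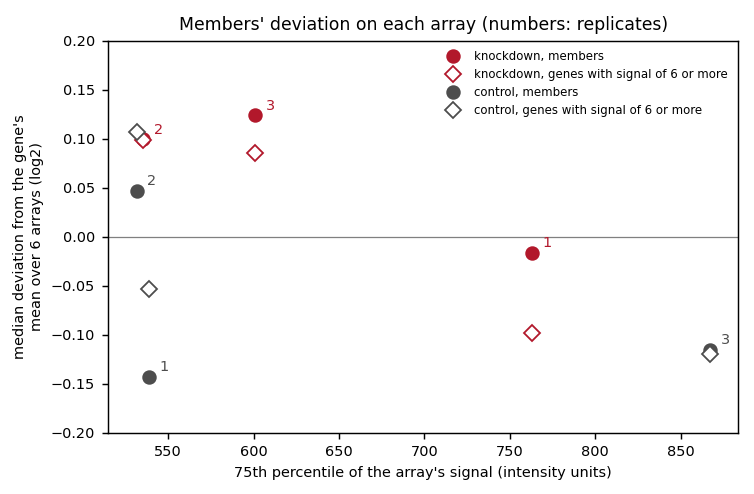
Median deviation from each gene's mean over 6 arrays (log2, vertical axis) against the array's 75th percentile of signal (intensity units, horizontal axis); filled circles are the members, numbered by replicate, and open diamonds the 646 genes with a signal of 6 or more. Knockdown 1 and control 3, the brightest arrays, and control 1, a dim one, have both marks below 0, and the marks of knockdown 2 coincide.

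20 members had several tested probes, 42 in all, and their log2 fold changes differed by at most 0.21 within a gene (median 0.07). The largest of these differences exceeds the members' median log2 fold change of 0.15. It was that of Atp5b, whose probes ran from 0.06 to 0.27. The probes of Atp5a1 had opposite signs (-0.06 and 0.13).

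Other genes of oxidative phosphorylation were listed beside the members, along with citric acid cycle genes, regulators of mitochondrial biogenesis, carriers and uncouplers. Over all 5 lists, 2 of 102 tested genes were called higher (1.96%, where 4.57% of all genes were) and 1 lower (0.98%, where 2.84% were). Of 44 tested assembly factors outside the prefixes, 1 was higher and 1 lower. Cox20, which helps mature a mitochondrially encoded subunit of complex IV, stood at 3.01, 3.03 and 3.21 in the knockdown, against 2.45, 2.45 and 2.54 in the control (0.61 ± 0.12 SE, limma adjusted p = 0.0270). Uqcc1, needed for assembly of complex III, stood at 1.83, 2.11 and 1.96, against 2.40, 2.59 and 2.71 in the control (-0.60 ± 0.14 SE, limma adjusted p = 0.0431). Neither gene's groups overlapped. Both calls were lost with the pairs as a block (limma adjusted p = 0.0599 for Cox20 and 0.0679 for Uqcc1), and with the mean of its probes Uqcc1 stood at -0.39 (adjusted p = 0.109). Of 11 tested ATP and ADP carriers and uncouplers, 1 was higher: Slc25a14, a brain-expressed carrier, stood at 2.63, 2.38 and 2.65 in the knockdown, against 1.91, 2.10 and 1.77 in the control (0.63 ± 0.14 SE, limma adjusted p = 0.0407; 0.0944 with the pairs as a block). With 1 array left out, Cox20 passed without knockdown 1 (0.034) and otherwise had an adjusted p of 0.0578 to 0.111, while Uqcc1 (0.0673 to 0.150) and Slc25a14 (0.0574 to 0.130) passed in none.

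In the remaining lists 0 genes passed limma's adjusted threshold. The 19 genes of the citric acid cycle had a median log2 fold change of 0.10, the 7 electron carriers and other subunits 0.06, and the 21 regulators of mitochondrial biogenesis -0.03. At an unadjusted limma p below 0.05, 12 of the 102 genes were higher (11.8%, beside 14.1% of all genes) and 11 lower (10.8%, beside 10.7%), of which the citric acid cycle held 0 and 1, the electron carriers 1 and 0, and the regulators 1 and 4. The regulators that were lower were Lrpprc (log2 fold change -0.62, limma adjusted p = 0.0633), Ppargc1b (-0.61, 0.0616), Pprc1 (-0.56, 0.127) and Esrra (-0.38, 0.0968). Esrra is one of the estrogen-related receptors. The regulator that was higher was Polg2 (0.28, limma adjusted p = 0.198). Nrf1 itself had a log2 fold change of -0.02 ± 0.16 (SE), and Gabpa, a subunit of GABP, -0.03 ± 0.17 (SE). The mitochondrially encoded subunits were not analysed here.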

How the data were processed

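Total RNA was labelled with Cy3 and hybridised to 6 single-colour Agilent arrays. The intensity values are the authors' scanner output: Agilent Feature Extraction 11.0.1.1 had subtracted the background, per the file headers, and no spot was saturated. The deposited table holds log2 values, which on each array equal log2 of the scanner's signal minus 1 constant (tolerance 0.01), so its scale is log2, its genes are not centred, and its column medians ran from -4.46 to -4.21.

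Outlier spots were left out and spots of a probe averaged. 12 probes had only outlier spots on some array, among them that of Atp5mpl. The 75th percentile of each array was subtracted. RefSeq named 32994 probes (58.3%) by unversioned accession. Probes well above background on at least 3 arrays were kept, and the probe with the highest mean stood for its gene. Cox5b, Ndufb1, Ndufb4b and Ndufb4c had no matched probe. Arrays had 54.5% to 56.8% of probes above background, and their number limits the precision.

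Groups were compared with limma 3.58.1 (R 4.3.3; lmFit and eBayes, two-sided, no block), with Benjamini-Hochberg adjustment over 14151 genes, and the script was tested on simulated data. Python 3.11.15, pandas 2.3.3, scipy 1.17.1 and matplotlib 3.10.9 were also used. The rule for naming took Ggct, members past the threshold, per complex the 3 largest changes and the highest signal, all of complex II, isoforms with their common form, and genes called in the other lists; other members are named for their role. Members and lists were chosen with earlier results of these data known. Alternatives were quantile normalization, a percentile over detected probes, normexp (on median spot signals, offset 50, in place of mean signals), other filters, the mean of a gene's probes, the deposited table, the pairs as a block and arrays left out. All 6 arrays lay on 1 slide, per the file names. As a check of the pairing, which comes from the shared dates in the titles, deviations of paired arrays from their group means correlated at -0.02, 0.55 and -0.20.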

Additional observations from a re-analysis of the deposited data

How the results depend on the processing

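The number of members called higher depended on the processing. It was 3 as reported, 2 under quantile normalization (Ndufv3 at an adjusted p of 0.0526), 0 without a filter on dim probes, 1 with the replicate block (Cox7a1), and 0 to 1 when arrays or pairs were left out (1 without knockdown replicate 1 or knockdown replicate 2, 0 otherwise). It was also 0 when each of 31804 probes was tested on its own, an alternative chosen after seeing the data, with limma adjusted p of 0.0609 for Cox7a1, 0.0937 for Ndufv3 and 0.0979 for Sdhaf4. Over the other 17 settings Cox7a1 passed in 9 (adjusted p 0.0199 to 0.196), Sdhaf4 in 6 (0.0336 to 0.253) and Ndufv3 in 5 (0.0341 to 0.295), with log2 fold changes of 0.61 to 0.75, 0.42 to 0.60 and 0.43 to 0.53. Among the 79 structural subunits alone, 2 were called higher, and their median log2 fold change was 0.16. The number called lower was 0 in all settings. The median of all members ran from 0.10 to 0.20, and no complex median changed sign, but those of complexes II to V moved by over 1.5 times in some setting, with ranges of 0.11 to 0.26 in II, 0.05 to 0.19 in III, 0.08 to 0.20 in IV and 0.10 to 0.22 in V. Single genes were compared only for the 31 tested members that the naming rule took, in 527 comparisons. Of these comparisons 31 lost the call, none gained one, and no called gene changed sign. In 27 comparisons an uncalled value had the other sign, for 9 of these members (Cox4i2, Cox6a1, Cox6a2, Cox6b2, Cox8a, Sdhaf2, Sdhb, Sdhc and Uqcrq), with values from -0.24 for Uqcrq to 0.21 for Sdhaf2. Members outside the rule changed sign too, among them Cox5a (-0.0024) and Ndufv1 (-0.03) under quantile normalization. In that setting 68 of 91 members were above 0, beside 79 as reported. Ggct had a log2 fold change of -3.12 to -2.78 when arrays or pairs were left out, and lost its call only without replicate 3 (adjusted p = 0.125). Of the 102 tested genes of the other lists, 2 were called higher and 1 lower as reported. The counts were 0 and 0 without a filter or with the replicate block, and 0 to 1 in each direction when arrays were left out. Under normexp 3 of these genes were called lower, and with probes above background on all 6 arrays 2 were. Over all genes, calls numbered 646 higher and 402 lower as reported, 394 and 164 with the block, 255 and 102 without a filter, and from 0 and 0 (without replicate 3) to 497 and 343 when arrays were left out. The number of arrays, 3 in each group, limits the precision. The cause of these changes was not tested.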
